A study of Mus musculus with 4 samples.

Results

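The TGF-beta and BMP pathway genes described here were taken from the probe annotation of a 1-colour mouse array by symbol: the ligands, their binding proteins and antagonists, the receptors, the SMADs, and a few named inhibitors and targets. The symbols matched 71 probes for 70 genes, of 23473 probes and 16446 named genes on the array. RNA levels were measured in NSCL61, a glioma-initiating cell line derived from p53-deficient mouse neural stem cells that overexpress an oncogenic HRas. The Eva1 shRNA group held 2 arrays of NSCL61 with a short hairpin RNA (shRNA) against Eva1, a cell adhesion gene now named Mpzl2, and the control group held 2 arrays titled with the name of the line only. The series title speaks of a control hairpin, and that is the basis for calling these 2 arrays controls. All arrays share the strain label C57BL6, the tissue brain and the stage P0. The hairpin cells were selected with hygromycin, for 2 weeks by one protocol field and 1 week by another, and it is not stated whether the controls were selected too. NSCL61 is a single engineered line. Nothing states that a group's arrays are separate cultures, so each p-value reflects the spread of these samples alone, and that spread may be technical.

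TGF-beta, activins and BMPs are secreted dimers that bring together type I and type II receptor kinases on the cell surface. The type I receptor then phosphorylates SMADs: as a rule Smad2 and Smad3 for TGF-beta and activin, and Smad1, Smad5 and Smad9 for BMPs. These join Smad4 and enter the nucleus. The pathway is held in check outside the cell by latency proteins and antagonists, and inside it by inhibitory SMADs, ubiquitin ligases and corepressors, several of which are themselves induced by SMADs. In the brain, BMPs are known for driving neural stem cells towards astrocytes, and TGF-beta is known for sustaining glioma-initiating cells.

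Deposited values were linear intensities with a median near 25 on each array, and 6.95% to 12% of the cells of an array were blank. Probes that were blank on 1 to 3 arrays had intensities of up to 5.09 at the 95th percentile of an array, and values below that are called dim here, since their size depends on signal near background. The targeted gene Mpzl2 had intensities of 8.20 and 6.21 on the Eva1 shRNA arrays, against 55.0 and 54.4 on the control arrays. It was lower on both hairpin arrays, with a log2 change of -3.12 ± 0.17 (SE; limma, adjusted p = 0.00172). Of 11 markers of neural stem and progenitor cells, 7 had a mean above the dim range, namely Nes, Vim, Fabp7, Msi1, Olig2, Pax6 and Notch1, while Prom1 and Slc1a3 were blank on some arrays. Fabp7 fell (12.3 and 12.2 in Eva1 shRNA cells, against 22.1 and 24.6 in control cells; log2 change -1.15, limma adjusted p = 0.00755), and the other 6 did not pass. With 16 intensity units added ahead of log2, the change of Fabp7 was -0.59. Summed marker intensities are compared within a list only. The sums in Eva1 shRNA and control cells were 34.93 to 38.16 and 30.57 to 31.27 for astrocytes, 132.2 to 134.5 and 165.4 to 169.6 for oligodendrocytes, and 100.7 to 116.5 and 72.06 to 73.1 for neurons. They were 163.5 to 169.2 and 217.1 to 246.2 for microglia and 17.93 to 23.73 and 20.23 to 21.57 for endothelium. Those of the progenitor markers were 20910 to 26780 and 16070 to 17160, of which Vim alone, also expressed by mesenchymal cells, made up 20270 to 26090 and 15330 to 16410. Of the markers of other cell types Cnp (oligodendrocyte, -1.06), Cd68 (microglia, -1.17) and Rgs5 (mural, -2.52) fell, and Acta2 rose. Limma adjusted p-values of these were 0.0129, 0.0147, 0.0212 and 0.0017. The calls of Fabp7, Cnp, Cd68 and Rgs5 did not hold without each array in turn, while that of Acta2 did. Rgs5 had 6.18 and 2.13 in Eva1 shRNA cells, against 15.4 and 22.1 in control cells. Its change was -0.86 with 16 intensity units added ahead of log2, so its size depends on dim signal. The astrocyte genes Gfap, Aqp4 and Slc1a2 and 4 of 5 endothelial markers were blank on at least 1 array. Summed intensities of 10 mural, smooth muscle and fibroblast markers were 437.2 to 585.9 in Eva1 shRNA cells and 196.7 to 223.6 in control cells, and without Acta2 they were 121.1 to 177.5 in Eva1 shRNA cells and 192.4 to 219.6 in control cells. On this list 6 of 10 were above the dim range, while the means of Myh11, Tagln and Des were dim and Cnn1 was blank on 2 arrays. Acta2 is a marker of that list and also a TGF-beta target gene, and the part of such cells in any result was not tested. In RNA from whole cultures, fewer cells of a type and less RNA per cell cannot be told apart.

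Genes of the pathway changed in both directions in the Eva1 shRNA cells. Calls went both ways among TGF-beta and activin ligands, extracellular regulators and SMADs. Up-only calls were 2 of 9 tested BMP and GDF ligands (22.2%) and 2 of 10 receptors (20%). Down-only calls were 2 of 7 intracellular inhibitors and other genes named for the pathway (28.6%). Each of these patterns rests on 2 calls, beside 21.5% called over all tested probes, so no direction by role is drawn from them. The gene for the secreted matrix protein Tgfbi, the inhibitory Smad7, the ubiquitin ligase gene Smurf1, the protease gene Bmp1 and the ligand gene Tgfb1 were lower. The receptor gene Tgfbr2, the pseudoreceptor gene Bambi, the secreted Fstl1, the ligand genes Bmp3 and Tgfb3 and the BMP transducer gene Smad1 were higher. Inha and Gdf11 were also called lower, and Fst, Gdf7 and a probe of Ltbp2 higher. The calls of Tgfb1, Tgfb3, Smad1 and Gdf11 were lost without any one of the arrays. Values on all 4 arrays, and so a test, were available for 56 of the 71 probes. Of these, 9 were higher (16.1%) and 7 lower (12.5%), and 40 did not pass (limma over 19199 probes, two-sided, adjusted p under 0.05). Over all tested probes 10.6% were higher and 10.9% lower. In either direction 28.6% of the pathway probes were called, beside 21.5% of all tested probes. Calls of at least 2-fold made up 17.9% of the pathway probes (5 higher and 5 lower), beside 10.6% of all tested probes. After normalization the groups did not overlap for 32 pathway probes (57.1%), against 64.8% of all probes. The median log2 change was 0.04 for the pathway and 0 for all probes, and the median absolute change was 0.32 and 0.35. With the authors' scaling in place of quantile normalization the median change of all probes became 0.19, and the pathway calls became 11 higher and 5 lower.

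**Figure D1:**
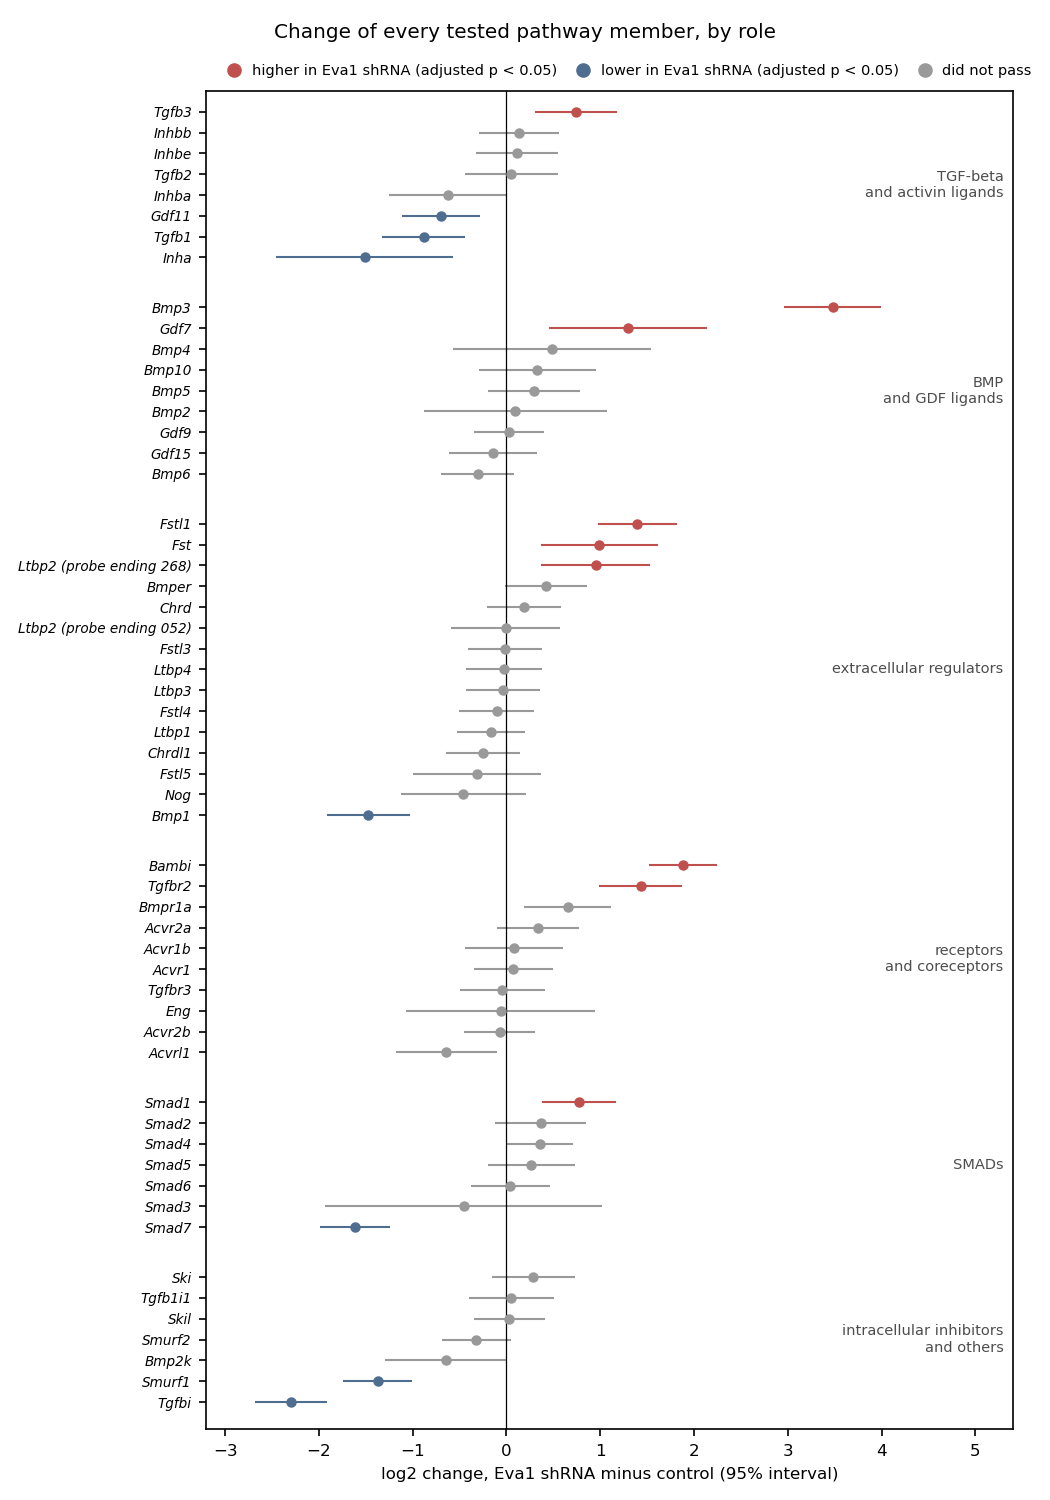
Log2 change (Eva1 shRNA minus control, x axis) with its 95% interval for each of the 56 tested probes, grouped by role. Red points were higher and blue points lower in Eva1 shRNA cells at adjusted p under 0.05, and grey points did not pass; the 16 called probes run from Tgfbi at -2.30 to Bmp3 at 3.48.

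**Figure D2:**
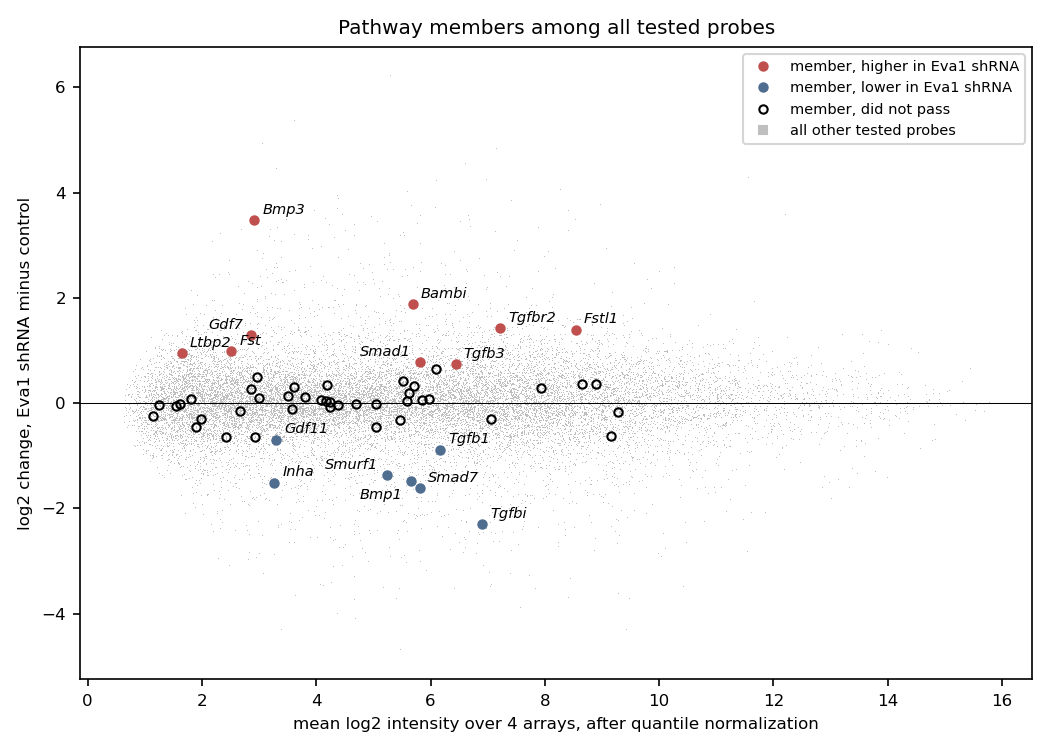
Log2 change (Eva1 shRNA minus control) against mean log2 intensity for all 19199 tested probes, in grey, with pathway probes marked: red for higher, blue for lower and open circles for not passed. Bmp3, Gdf7, Fst, Ltbp2, Gdf11 and Inha lie at the dim end, while Tgfbi, Tgfbr2 and Fstl1 are the brightest of the called probes.

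The 6 promoters below belong to called genes whose brighter group averaged above the array median of 25 and that matched a RefSeq promoter. Any promoter on a single excluded chromosome was left out, so a bright called gene there is not shown. Of the 16 called genes 10 matched a promoter, and those without a printed promoter are named only. The 6 are shown because they place genes that fell beside genes that rose. Each runs 5′ to 3′ on the gene's strand, from 250 bases before to 50 bases after a gene start in GRCm38.p6. Capitals mark 3 motifs, searched on both strands: CAGAC (reverse GTCTG), the core bound by Smad3 and Smad4, the element GGCGCC, bound by BMP SMADs, and TGANTCA, the AP-1 site. Tgfbi (chr13:56609336-56609635, plus strand), Smurf1 (chr5:144965781-144966080, minus) and Tgfb1 (chr7:25686752-25687051, plus) were lower in Eva1 shRNA cells. Tgfbr2 (chr9:116175314-116175613, minus), Fstl1 (chr16:37776805-37777104, plus) and Smad1 (chr8:79399379-79399678, minus) were higher.
Tgfbi: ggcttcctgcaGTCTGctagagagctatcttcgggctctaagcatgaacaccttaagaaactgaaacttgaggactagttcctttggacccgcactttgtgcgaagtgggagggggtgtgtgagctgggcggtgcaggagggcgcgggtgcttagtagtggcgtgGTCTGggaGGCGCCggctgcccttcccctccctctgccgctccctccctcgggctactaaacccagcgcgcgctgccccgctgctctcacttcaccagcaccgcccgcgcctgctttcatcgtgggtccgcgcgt
Smurf1: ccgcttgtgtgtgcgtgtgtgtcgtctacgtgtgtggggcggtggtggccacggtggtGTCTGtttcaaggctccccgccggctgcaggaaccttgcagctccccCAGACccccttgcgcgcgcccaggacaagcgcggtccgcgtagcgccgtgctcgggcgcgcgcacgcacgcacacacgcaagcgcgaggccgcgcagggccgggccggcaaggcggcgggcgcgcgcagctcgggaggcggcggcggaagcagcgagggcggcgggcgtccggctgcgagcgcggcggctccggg
Tgfb1: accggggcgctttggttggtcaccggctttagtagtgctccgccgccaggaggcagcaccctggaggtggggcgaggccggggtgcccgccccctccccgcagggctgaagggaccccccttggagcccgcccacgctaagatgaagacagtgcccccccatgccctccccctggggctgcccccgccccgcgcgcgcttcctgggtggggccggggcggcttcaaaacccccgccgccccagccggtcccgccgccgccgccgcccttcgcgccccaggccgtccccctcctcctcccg
Tgfbr2: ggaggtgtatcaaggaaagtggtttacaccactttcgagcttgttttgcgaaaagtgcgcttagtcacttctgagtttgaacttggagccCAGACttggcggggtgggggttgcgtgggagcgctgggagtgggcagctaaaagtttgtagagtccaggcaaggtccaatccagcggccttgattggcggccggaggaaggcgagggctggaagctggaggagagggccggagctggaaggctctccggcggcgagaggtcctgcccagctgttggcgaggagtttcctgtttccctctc
Fstl1: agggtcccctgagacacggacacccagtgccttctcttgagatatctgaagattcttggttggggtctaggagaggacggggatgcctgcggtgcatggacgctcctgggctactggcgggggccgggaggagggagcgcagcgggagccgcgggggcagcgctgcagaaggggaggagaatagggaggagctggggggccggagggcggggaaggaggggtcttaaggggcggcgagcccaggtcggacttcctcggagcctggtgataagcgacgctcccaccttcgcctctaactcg
Smad1: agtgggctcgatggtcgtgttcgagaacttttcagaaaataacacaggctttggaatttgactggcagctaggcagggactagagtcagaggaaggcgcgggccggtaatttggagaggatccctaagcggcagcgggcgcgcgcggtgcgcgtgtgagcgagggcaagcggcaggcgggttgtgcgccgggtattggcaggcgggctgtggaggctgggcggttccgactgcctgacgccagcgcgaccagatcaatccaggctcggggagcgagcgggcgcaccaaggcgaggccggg

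Tgfbi and Smurf1 each held 2 CAGAC motifs and Tgfbr2 held 1, and Tgfb1, Fstl1 and Smad1 held 0. Tgfbi also held 1 GGCGCC motif, and no promoter of the 6 held TGANTCA. Among all 32851 promoters of the same length, 49.6% held CAGAC, 11.9% GGCGCC and 7.81% TGANTCA. Of 39 tested pathway genes with a promoter in the table, 21 held CAGAC, 9 held GGCGCC and 1 held TGANTCA. Of those genes, 2 of the 5 that rose and 3 of the 5 that fell held CAGAC. A match describes the letters only and is not evidence of binding.

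Among ligands of the TGF-beta and activin branch, Tgfb1 fell and Tgfb3 rose. Tgfb1, which encodes the most studied isoform, had intensities of 51.0 and 61.7 on the Eva1 shRNA arrays, against 88.7 and 92.9 on the control arrays. Both hairpin arrays were below both controls, with a log2 change of -0.88 ± 0.18 (SE; limma, adjusted p = 0.0255). Tgfb3 had 138 and 104 in Eva1 shRNA cells, against 61.4 and 63.7 in control cells, and did not overlap either (log2 change 0.74 ± 0.17, limma adjusted p = 0.0386). Tgfb2 had 75.1 and 52.1 in Eva1 shRNA cells, against 52.0 and 54.5 in control cells. These groups overlapped, and the log2 change was 0.05 with a 95% interval of -0.44 to 0.55. Among inhibin and activin subunits, Inha, the alpha subunit that turns an activin into an inhibin, had 7.86 and 4.76 in Eva1 shRNA cells, against 20.3 and 11.2 in control cells. It fell by 1.51 ± 0.37 on the log2 scale (limma, adjusted p = 0.0435), although the arrays of each group differed widely. Inhba, which encodes the subunit of activin A, had 424 and 569 in Eva1 shRNA cells, against 804 and 578 in control cells. The nearest arrays of the groups were close, and its log2 change of -0.63 did not pass (95% interval -1.25 to 0.00, limma adjusted p = 0.136). Its p fell under the threshold with eBayes trend (0.0154), with 16 units added (0.0406) and once the dimmest 25% of probes were removed (0.0458). Gdf11, a close relative of myostatin, had 7.96 and 8.75 in Eva1 shRNA cells, against 10.4 and 12.7 in control cells, a log2 change of -0.69 ± 0.16 (limma, adjusted p = 0.0394). Inhbb (0.14) and Inhbe (0.11) did not pass, and Inhbc and myostatin (annotated Gdf8) were blank on at least 1 array of each group.

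The calls of Tgfb1, Tgfb3 and Gdf11 were lost without any one of the arrays, and the adjusted p reached 0.134, 0.183 and 0.197 without Eva1 shRNA array 1. That of Inha was kept only without control array 2 and reached 0.173 without Eva1 shRNA array 2. Adding 16 intensity units ahead of log2 shrinks differences of dim probes, and the change was then -0.58 for Inha and -0.26 for Gdf11. The authors' scaling ended the calls of Gdf11 (adjusted p = 0.11) and Inha (0.0625), and 16 units added that of Gdf11 (0.0608). Filling blank cells ended those of Tgfb3 (0.0679), Gdf11 (0.0672) and Inha (0.0829).

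Of 17 BMP and GDF ligand probes 9 could be tested, 2 rose, 0 fell and 7 did not pass. Bmp3, an atypical BMP known to oppose other BMPs in bone, had intensities of 33.0 and 22.4 in Eva1 shRNA cells, against 2.07 and 2.29 in control cells. The control values were dim, so the size of the difference is not settled: the log2 change was 3.48 ± 0.20 (limma, adjusted p = 0.00172), and 1.18 with 16 units added. The call was kept whichever array was left out. Gdf7, a ligand known from the roof plate of the neural tube, had 11.4 and 13.5 in Eva1 shRNA cells, against 3.02 and 6.21 in control cells. The groups did not overlap, yet the control arrays differed from each other about as much as the nearest arrays of the groups did (log2 change 1.29 ± 0.33, limma adjusted p = 0.0492, and 0.40 with 16 units added). The change was 0.83 without control array 1. Its call was kept only without control array 2, reached an adjusted p of 0.193 without Eva1 shRNA array 2, and was lost with median centring (0.0504), robust eBayes (0.054) and blank cells filled (0.092).

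The BMPs best known in neural stem cell differentiation did not pass. Bmp4 had 9.70 and 10.4 in Eva1 shRNA cells, against 9.13 and 4.16 in control cells, and Bmp2 had 6.91 and 11.5, against 9.13 and 5.65 in control cells. The Bmp2 groups overlapped, and the intervals of both changes were wide, at -0.57 to 1.54 for Bmp4 and -0.88 to 1.07 for Bmp2. Without control array 1, Bmp4 passed (log2 change 1.125, limma adjusted p = 0.0468). Bmp6 had 128 on both Eva1 shRNA arrays, against 147 and 131 on the control arrays, a log2 change of -0.31 (95% interval -0.69 to 0.07). Bmp5 (0.30), Bmp10 (0.33), Gdf9 (0.03) and the stress-induced Gdf15 (-0.14) did not pass. The other 8 ligand probes, Bmp7, Bmp8a, Bmp8b, Bmp15, Gdf3, Gdf5, Gdf6 and Gdf10, were blank on 1 or more arrays. No value among all 15 untested pathway probes was above 5.79 (Bmp8a, Eva1 shRNA array 2).

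Among the extracellular regulators, 3 of 15 tested probes rose (Fstl1, Fst and 1 probe of Ltbp2), Bmp1 fell, and the BMP antagonists Nog, Chrd and Chrdl1 did not pass. In either direction 26.7% of these probes were called, beside 21.5% of all tested probes. Fstl1, a secreted follistatin-like glycoprotein, had intensities of 717 and 565 in Eva1 shRNA cells, against 212 and 222 in control cells. Both hairpin arrays were far above both controls, a 2.63-fold difference (log2 change 1.395 ± 0.17, limma adjusted p = 0.00682). Bmp1 is not a ligand but a metalloproteinase that cleaves procollagens and the BMP antagonist chordin. It had 31.3 and 34.0 in Eva1 shRNA cells, against 85.4 and 71.8 in control cells, and was 2.78-fold lower with no overlap (log2 change -1.47 ± 0.18, limma adjusted p = 0.00682). Without Eva1 shRNA array 1 the adjusted p was 0.0505 for Fstl1 and 0.0531 for Bmp1, and both kept their calls without each of the other arrays. Fst, the activin antagonist follistatin, had 9.28 and 8.12 in Eva1 shRNA cells, against the dim values of 2.90 and 4.90 in control cells (log2 change 0.99 ± 0.24, limma adjusted p = 0.044, and 0.26 with 16 units added). Its call was kept only without control array 2, reached 0.179 without Eva1 shRNA array 1, and was lost with 16 units added (0.0735) and with blank cells filled (0.0826).

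The latent TGF-beta binding proteins, which hold secreted TGF-beta in the matrix, did not pass except for 1 probe. Ltbp1 had 611 and 625 in Eva1 shRNA cells, against 630 and 624 in control cells, with a 95% interval of the log2 change of -0.53 to 0.19. The 2 probes of Ltbp2 disagreed. The first had 5.90 and 3.67 in Eva1 shRNA cells, against 2.13 and 2.19 in control cells, and was called (log2 change 0.95 ± 0.23, limma adjusted p = 0.0412). The second had 3.94 and 2.62 in Eva1 shRNA cells, against 2.45 and 3.41 in control cells, with a change of -0.01. All group means of both probes were dim, and the call of the first was lost with 16 units added (0.239), with blank cells filled (0.0865), with eBayes trend (0.0842) and without any array but Eva1 shRNA array 2, at most 0.156. Ltbp3 (-0.03) and Ltbp4 (-0.02) did not pass. Of the BMP antagonists, Nog (noggin) had 28.2 and 31.9 in Eva1 shRNA cells, against 45.2 and 29.0 in control cells, and Chrd (chordin) had 56.1 and 54.8, against 39.2 and 47.6 in control cells. Noggin's groups overlapped, and neither passed (log2 changes -0.46 and 0.18). Bmper, which binds BMPs, had a change of 0.42 that did not pass (95% interval -0.02 to 0.86). Chrdl1 (-0.25), Fstl3 (-0.01), Fstl4 (-0.10) and Fstl5 (-0.31) did not pass, and Chrdl2 was blank on 1 array.

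Of the receptors, the type II TGF-beta receptor gene Tgfbr2 and the pseudoreceptor gene Bambi rose, and none fell. Tgfbr2 had intensities of 282 and 232 in Eva1 shRNA cells, against 75.4 and 93.5 in control cells. The groups were well apart, with a 2.69-fold difference (log2 change 1.43 ± 0.18, limma adjusted p = 0.00735, but 0.0563 without Eva1 shRNA array 1). Bambi, which resembles a type I receptor but lacks the kinase and dampens signalling, had 111 and 101 in Eva1 shRNA cells, against 23.9 and 26.1 in control cells. That is a 3.70-fold rise with close replicates (log2 change 1.89 ± 0.14, limma adjusted p = 0.00259), kept whichever array was left out. Bmpr1a, a type I BMP receptor, had 105 and 79.5 in Eva1 shRNA cells, against 47.2 and 55.6 in control cells. Its groups did not overlap, but the log2 change of 0.65 did not pass (95% interval 0.19 to 1.11, limma adjusted p = 0.0611). It did pass with the authors' scaling (0.0407), with 16 units added (0.011), without the dimmest 25% of probes (0.0146), with eBayes trend (0.00714) and with 1 probe per gene (0.0495).

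The partner of Tgfbr2, the type I receptor gene Tgfbr1, could not be tested. It was blank on Eva1 shRNA array 1 and had 2.55 on array 2, against 2.10 and 2.25 in control cells, all in the dim range. The coreceptor genes Tgfbr3 (betaglycan) and Eng (endoglin) and the type I activin receptor gene Acvr1b were also dim in both groups, with log2 changes of -0.04, -0.06 and 0.08. Tgfbr3 had 2.43 and 2.44 in Eva1 shRNA cells, against 2.01 and 2.67 in control cells. Eng had 3.95 and 2.29, against 3.78 and 2.09 in control cells, and Acvr1b had 4.44 and 3.36, against 3.48 and 2.95 in control cells. None of these groups stood apart after normalization. Acvr1, a type I receptor for BMPs, had 73.1 and 65.9 in Eva1 shRNA cells, against 51.7 and 64.1 in control cells (log2 change 0.07, 95% interval -0.35 to 0.49). The type II receptor genes Acvr2a and Acvr2b had 24.8 and 19.4, and 19.5 and 20.1, in Eva1 shRNA cells, against 13.7 and 16.4, and 16.7 and 19.3, in control cells. Their log2 changes of 0.34 and -0.07 did not pass, with intervals of -0.10 to 0.77 and -0.45 to 0.30. Acvrl1, a type I receptor best known from endothelium, had 5.67 and 7.61 in Eva1 shRNA cells, against 8.07 and 9.39 in control cells, and did not pass (-0.64, 95% interval -1.18 to -0.10, limma adjusted p = 0.0906). Bmpr1b and Acvr1c were blank on 1 and on 4 arrays, and no probe was annotated with the symbol Bmpr2.

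Among the SMADs, the inhibitory Smad7 fell and the BMP transducer Smad1 rose. Smad7, which blocks type I receptors and recruits Smurf ubiquitin ligases to them, had intensities of 34.3 and 35.1 in Eva1 shRNA cells, against 87.8 and 95.9 in control cells. It was 3.06-fold lower with close replicates (log2 change -1.61 ± 0.15, limma adjusted p = 0.00373), whichever array was left out. The other inhibitory SMAD gene, Smad6, which acts mainly on BMP signals, had 19.4 and 19.8 in Eva1 shRNA cells, against 17.7 and 15.4 in control cells. Its change of 0.04 did not pass, with an interval of -0.38 to 0.46. Smad1 had 76.2 and 81.5 in Eva1 shRNA cells, against 37.5 and 42.9 in control cells, with no overlap (log2 change 0.78 ± 0.15, limma adjusted p = 0.0258). The call was lost whichever array was left out, up to 0.14 without Eva1 shRNA array 2. Smad5, the other measured BMP transducer, had 9.35 and 7.89 in Eva1 shRNA cells, against 6.64 and 5.68 in control cells (log2 change 0.26, 95% interval -0.20 to 0.73). Smad9 had a value on 1 array only.

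Of the TGF-beta and activin transducers, Smad2 had 676 and 485 in Eva1 shRNA cells, against 406 and 386 in control cells. The hairpin arrays were higher but differed from each other, and the log2 change of 0.36 did not pass (95% interval -0.12 to 0.85). Smad3 was dim and scattered, with 2.03 and 5.41 in Eva1 shRNA cells, against 5.92 and 2.83 in control cells. Its interval of -1.94 to 1.02 was the widest of the SMADs, so a 2-fold difference was not detectable there. Smad4, the partner of all receptor-regulated SMADs, had 488 and 476 in Eva1 shRNA cells, against 330 and 334 in control cells. Replicates were close, yet the log2 change of 0.36 did not pass (95% interval 0.00 to 0.71, limma adjusted p = 0.132). It passed with the authors' scaling (0.0483), 16 units added (0.0187) and eBayes trend (0.0411).

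Among the intracellular inhibitors, Smurf1 fell and the others did not pass. Smurf1, a ubiquitin ligase that marks BMP SMADs and, with Smad7, receptors for degradation, had intensities of 25.9 and 24.2 in Eva1 shRNA cells, against 58.4 and 55.3 in control cells. It was 2.59-fold lower (log2 change -1.37 ± 0.15, limma adjusted p = 0.00529), whichever array was left out. Its relative Smurf2 had 42.2 and 42.9 in Eva1 shRNA cells, against 47.3 and 46.1 in control cells, a change of -0.32 that did not pass (95% interval -0.69 to 0.05). The SMAD corepressor genes Ski (0.28) and Skil (0.03) did not pass. Tgfbi, a matrix protein named for its induction by TGF-beta, had 60.9 and 53.2 in Eva1 shRNA cells, against 239 and 263 in control cells. It was 4.92-fold lower (log2 change -2.30 ± 0.15, limma adjusted p = 0.00193), the fall of rank 137 among all tested probes, and was still called without any one array. Tgfb1i1, a focal adhesion adaptor also named for TGF-beta (0.05), and Bmp2k, a kinase named for BMP2 (-0.64, 95% interval -1.29 to 0.01), did not pass.

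**Figure D3:**
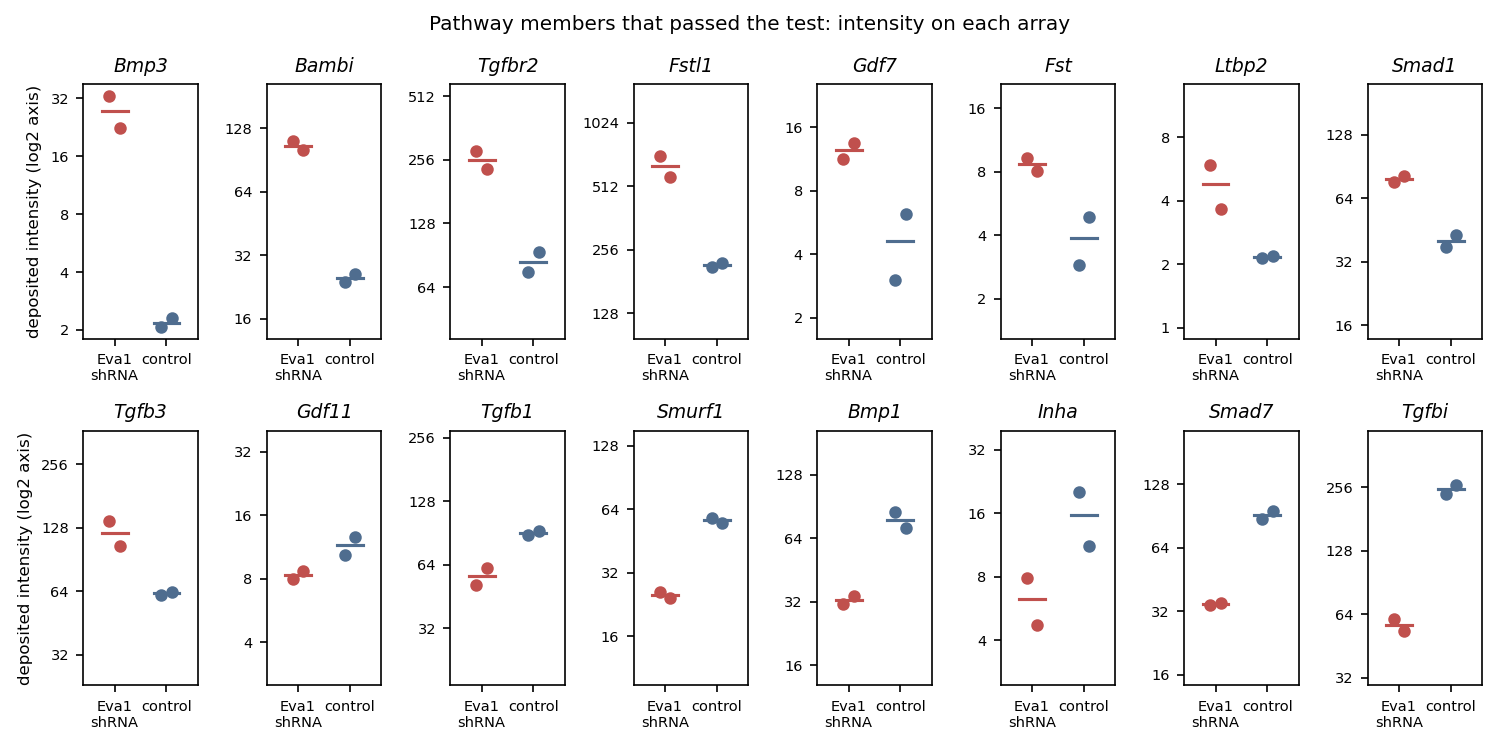
Deposited intensity on each array, on a log2 axis, for the 16 called probes, with Eva1 shRNA arrays (red) left of control arrays (blue) and the group mean as a line. The groups do not overlap in any panel, but the panels were picked by the test. Among all tested probes 64.8% did not overlap after normalization. The replicates of Inha and the control replicates of Gdf7 and Fst lie far apart, and those of Bambi, Smad7 and Smurf1 lie close.

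Of the 16 calls, those of Bambi, Bmp3, Smad7, Smurf1 and Tgfbi were kept whichever array was left out. The direction of all 16 was kept too. Their groups did not overlap after normalization, so this was nearly fixed in advance and adds no support. Pathway probes were called in 5 cases without Eva1 shRNA array 1 (8.93%, beside 5.27% of all probes), in 9 without Eva1 shRNA array 2 (16.1%, beside 6.72%), in 9 without control array 1 (16.1%, beside 9.07%) and in 11 without control array 2 (19.6%, beside 13.0%). Of the 40 probes that did not pass, 31 had a 95% interval within a 2-fold change in both directions. The other 9, Acvrl1, Bmp2, Bmp2k, Bmp4, Bmpr1a, Eng, Inhba, Nog and Smad3, had wider intervals.

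**Figure D4:**
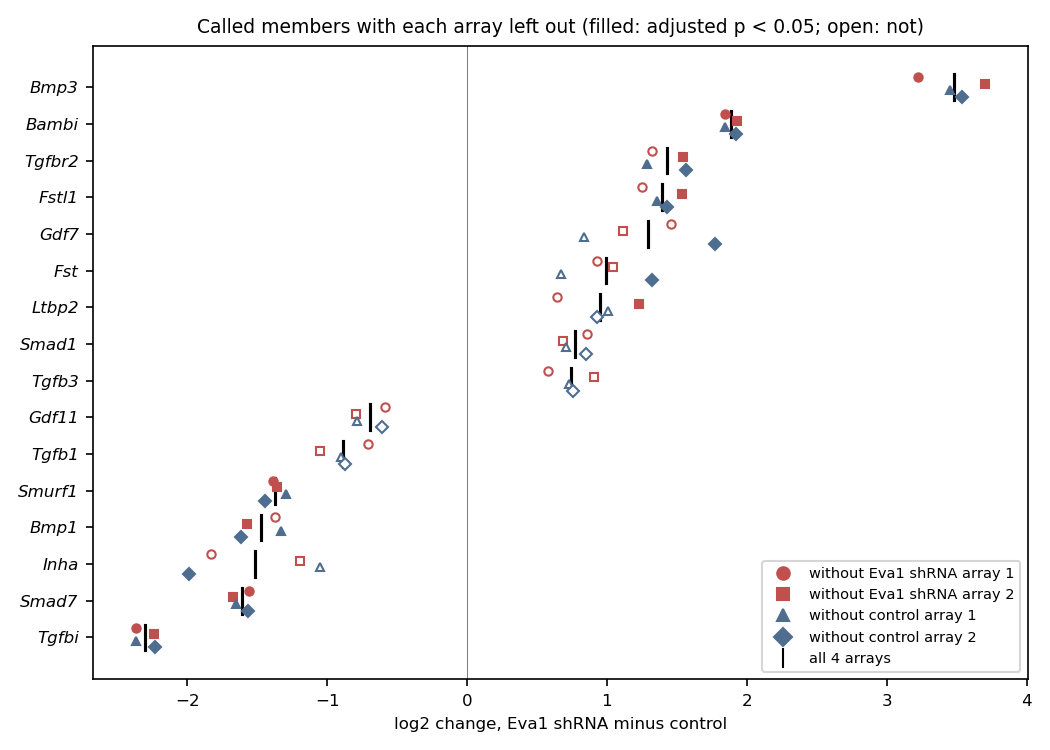
Log2 change (Eva1 shRNA minus control) of the 16 called probes with each array left out, as symbols, beside the value from all 4 arrays, as a bar. Filled symbols passed at adjusted p under 0.05 and open symbols did not. No symbol crosses 0, which was nearly fixed in advance because the groups of these probes did not overlap.

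Other genes of the pathway were read from 5 lists, with 1 probe per gene and the genes above left out. Over all 13805 tested named genes 22.9% were called in either direction. Of 15 tested genes of TGF-beta latency and activation, 2 rose, 5 fell and 8 did not pass (46.7% called, median log2 change -0.23). Besides the 4 genes below, Thbs2 (-1.195), Htra1 (-1.115) and Itgav (-0.99) fell (limma adjusted p = 0.00684 to 0.0251). The change of Itgav was -0.77 without Eva1 shRNA array 1, and its call was lost with blank cells filled (limma adjusted p = 0.0506). None of the calls of Thbs2, Htra1 and Itgav held without each array in turn. Thbs1, which encodes an activator of latent TGF-beta, had 49.2 and 53.2 in Eva1 shRNA cells, against 272 and 243 in control cells, a log2 change of -2.51. Emilin1, a matrix protein that restrains TGF-beta processing, had 102 and 77.0 in Eva1 shRNA cells, against 309 and 317 in control cells, and also fell (-2.01). The proteoglycan gene Bgn, with 1552 and 1124 in Eva1 shRNA cells, against 68.5 and 72.5 in control cells, rose by 4.05, and the fibrillin gene Fbn1, with 186 and 142 in Eva1 shRNA cells, against 34.5 and 32.1 in control cells, rose by 2.10. Limma adjusted p-values of these 4 were 0.0017 to 0.00339, and the highest with an array left out was 0.0316.

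Of 16 tested other ligands, antagonists and coreceptors, 2 rose, 2 fell and 12 did not pass (25% called, median 0.06). Lefty1, a secreted inhibitor of Nodal, had 11.9 and 27.4 in Eva1 shRNA cells, against 136 and 121 in control cells, a log2 change of -3.04 (limma adjusted p = 0.0101, but 0.0642 without control array 1 and 0.0505 without control array 2). Nodal itself had 31.3 and 25.2 in Eva1 shRNA cells, against 10.8 and 11.0 in control cells, and rose by 1.14 (0.00965, but 0.0699 without Eva1 shRNA array 1). The DAN family BMP antagonist gene Nbl1 had 160 and 126 in Eva1 shRNA cells, against 14.4 and 12.8 in control cells, and rose by 3.18 (0.00172), whichever array was left out. The BMP coreceptor gene Rgmb had 115 and 141 in Eva1 shRNA cells, against 207 and 203 in control cells, and fell by 0.86 (0.0269), a call lost without any one of the arrays, up to 0.139 without Eva1 shRNA array 1. With 16 units added the change of Nodal was 0.60. The 4 calls became 2 without Eva1 shRNA array 1 and 2 without control array 1.

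Of 31 tested intracellular regulators, 3 rose, 2 fell and 26 did not pass (16.1% called, median 0.02), beside 22.9% called of all tested named genes. Pmepa1, a TGF-beta-induced membrane protein that sequesters SMADs, had 387 and 380 in Eva1 shRNA cells, against 1083 and 970 in control cells. It fell by 1.596 (limma adjusted p = 0.00373), whichever array was left out. The phosphatase gene Ctdspl had 56.8 and 52.5 in Eva1 shRNA cells, against 17.0 and 21.5 in control cells, and rose by 1.32 (0.00722). The adaptor gene Dab2 had 32.6 and 28.9 in Eva1 shRNA cells, against 10.7 and 14.1 in control cells, and rose by 1.11 (0.0128). The endosomal protein gene Zfyve16 had 63.0 and 58.9 in Eva1 shRNA cells, against 102 and 103 in control cells, and fell by 0.93 (0.0121). The groups did not overlap for any of the 3. With 16 units added the change was 0.61 for Dab2 and 0.88 for Ctdspl. Crebbp, the other gene that rose, had a change of 0.72 (limma adjusted p = 0.0407), or 0.32 with 16 units added. Its call was lost without any one of the arrays, and its change was 0.56 without Eva1 shRNA array 2. That call was also lost with blank cells filled (limma adjusted p = 0.0715) and with the replicate block (limma adjusted p = 0.057). Ctdspl lost its call without Eva1 shRNA array 1 (0.0564). Dab2 and Zfyve16 kept theirs only without control array 2, and reached 0.0843 (Dab2, Eva1 shRNA array 1 left out) and 0.0815 (Zfyve16, Eva1 shRNA array 2 left out). The 5 calls became 1 and 2 without Eva1 shRNA arrays 1 and 2 and 2 without control array 1.

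Target genes of TGF-beta and activin moved both ways. Of 28 tested, 7 rose, 5 fell and 16 did not pass (42.9% called, median 0.31). Acta2, smooth muscle actin, had 408 and 316 in Eva1 shRNA cells, against 4.04 and 4.38 in control cells, which are dim, and rose by 6.22 (limma adjusted p = 0.0017), or 4.10 with 16 units added. Of the other contractile target genes on the list, Tagln had 1.68 and 2.21 in Eva1 shRNA cells, against 1.64 and 3.58 in control cells, dim in both groups, and did not pass, and Cnn1 could not be tested. Snai2, a mesenchymal transcription factor gene, had 48.7 and 41.3 in Eva1 shRNA cells, against 9.30 and 12.1 in control cells, and rose by 1.87 (0.00373), or 1.07 with 16 units added. The protease inhibitor gene Timp3 had 104 and 59.9 in Eva1 shRNA cells, against 11.3 and 13.4 in control cells, and rose by 2.47 (0.00529), or 1.62 with 16 units added. The lipid kinase gene Sphk1 had 106 and 85.1 in Eva1 shRNA cells, against 24.4 and 16.2 in control cells, and rose by 2.06 (0.00765, but 0.0541 without Eva1 shRNA array 1). Neither the replicates of Timp3 nor those of Sphk1 were close, yet the groups stood well apart. The other 3 that rose and the 5 that fell were named after their values were seen. Those that rose were the matricellular genes Ccn2 (1.32, adjusted p = 0.0171, and 0.50 with 16 units added) and Ccn1 (1.06, 0.00869) and the collagen gene Col1a2 (0.76, 0.0298). Those that fell were Cdkn1a (-1.16), the cell cycle inhibitor p21, Has2 (-1.07), Itga5 (-1.05), Bhlhe40 (-0.81) and Timp1 (-0.79). With 16 units added the change was -0.56 for Has2 and -0.62 for Itga5. Adjusted p-values of these 5 were 0.012 to 0.0289, and each lost its call without at least 3 of the 4 arrays in turn, up to 0.156 for Timp1. Ccn1 lost its call without Eva1 shRNA array 1 or 2, Ccn2 without any array but control array 1, and Col1a2 without any one of the arrays. The 12 calls became 3 and 5 without Eva1 shRNA arrays 1 and 2, and 6 without control array 2.

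Of 19 tested BMP target genes, 2 rose, 3 fell and 14 did not pass (26.3% called, median 0.03), and the Id genes, textbook BMP targets that inhibit differentiation factors, were divided. Id1 had 489 and 457 in Eva1 shRNA cells, against 1055 and 841 in control cells, and fell by 1.16 (limma adjusted p = 0.0106). Id2 had 243 and 167 in Eva1 shRNA cells, against 31.8 and 26.4 in control cells, and rose by 2.60 (0.00339). Id4 had 602 and 621 in Eva1 shRNA cells, against 133 and 129 in control cells, and rose by 2.06 (0.00216). So Id2 and Id4 stood above the controls on both arrays, and Id1 below them. Id3, named after its value was seen, fell by 1.56 (0.014), and the Notch and BMP target gene Hey1, with 63.0 and 62.2 in Eva1 shRNA cells, against 365 and 328 in control cells, fell by 2.64 (0.00172). The calls of Hey1, Id2 and Id4 held without each array in turn. That of Id1 was lost without Eva1 shRNA array 1 (0.0689) or 2 (0.0698), and that of Id3 without Eva1 shRNA array 2 (0.0561) or control array 1 (0.0738). The 5 calls became 3 without Eva1 shRNA array 2.

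**Figure D5:**
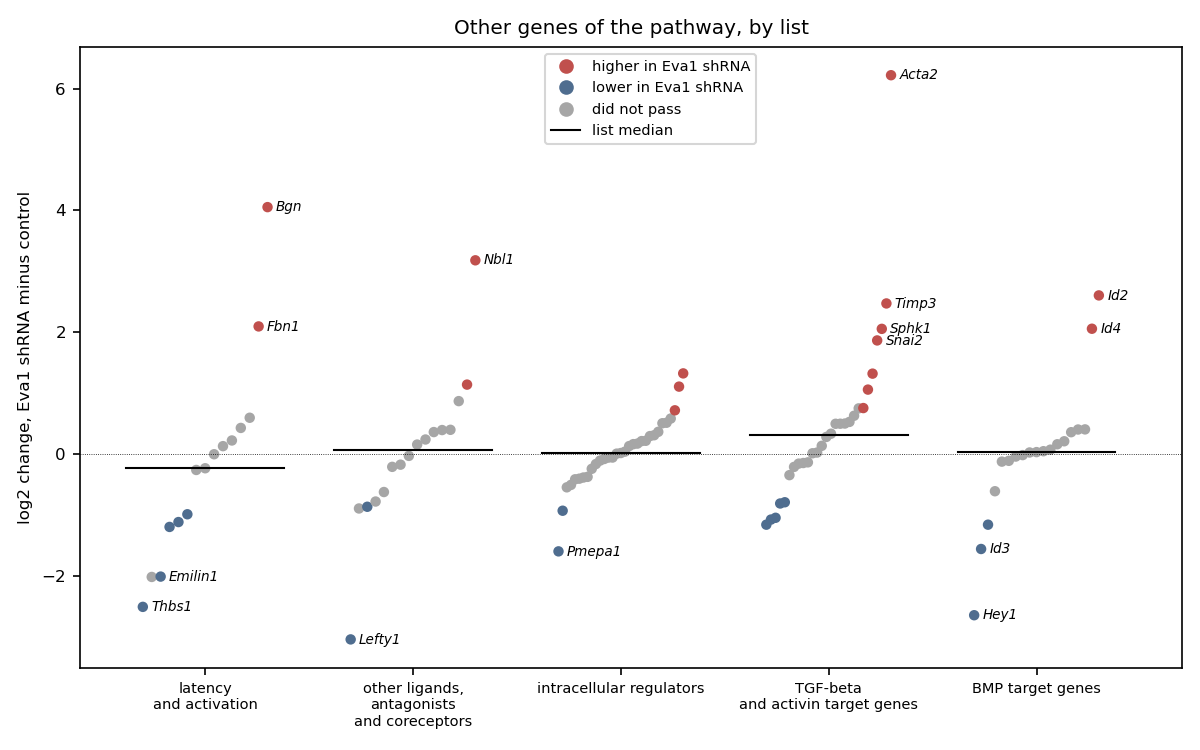
Log2 change (Eva1 shRNA minus control) of each tested gene of the 5 pathway lists, sorted within a list, with the list median as a line. Red genes were higher and blue genes lower in Eva1 shRNA cells, grey genes did not pass, and called genes beyond 1.5 are named; the list medians run from -0.23 to 0.31.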

How the data were processed

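RNA of 4 samples of NSCL61 was amplified, labelled with Cy5 and hybridised, per the labels' protocols, to a mouse 3D-Gene chip. The deposited intensity values were scaled by the authors to a median near 25 on each array, as the values show. The sources used here do not give the background correction or the rule for blank cells. These numbered 1631 and 1960 on the Eva1 shRNA arrays and 2811 and 2539 on the control arrays, 500 probes were blank on all 4 arrays and 3774 on 1 to 3. A symbol was annotated for 16631 probes and none for 6842. Symbols of the pathway and marker lists were updated through RefSeq (GRCm38.p6).

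Log2 intensities of the 19199 probes with a value on all 4 arrays were quantile normalized. The reason was that array medians within this set spanned 0.274 log2 units, whereas medians over all values were near 25. A change can thus differ in sign from the deposited intensities. Acvr2b, higher on both hairpin arrays as deposited, had -0.07 after quantile normalization and 0.14 with the authors' scaling. Normalized values were compared with limma 3.58.1 (lmFit and eBayes, two-sided, R 4.3.3). Benjamini-Hochberg adjustment covered all 19199 probes, threshold 0.05. There were 2 residual degrees of freedom per probe, and the number of arrays limits the precision. A listed gene was read from its probe with the highest mean. Of replicates, r across probes was 0.9933 (Eva1 shRNA) and 0.9907 (control), against 0.9644 to 0.9703 between groups. Full values were given for called pathway probes and for core ligands, receptors and SMADs, and of each list for up to 4 called genes with the smallest p. Values of other members, such as Bmp2, Bmp4, Nog, Chrd, Ltbp1 and Smurf2, and other called list genes were added after they were seen. The members, lists and naming rule were chosen with earlier results of these data known. The procedure was tested on simulated data. Promoters were read from RefSeq with Python 3.11.15, and figures were drawn with matplotlib 3.10.9.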

Additional observations from a re-analysis of the deposited data

How the results depend on the processing

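The comparison was repeated with each array left out and under 9 other settings: scaling by the authors or by median centring, a filter on the dimmest 25% of probes, 16 units added, blank cells filled, the replicate block, eBayes with trend or robust, and 1 probe per gene. Of 90 counts of calls under those 9, 85 were within 1.5 times those reported. With blank cells filled, pathway calls were 10 in place of 16 and the higher ones 5 in place of 9. With eBayes trend, calls were 7 in place of 4 among other ligands and antagonists and 10 in place of 5 among intracellular regulators, and with 16 units added the intracellular regulators had 11. Deviations of same-numbered arrays correlated at -0.00926, so no shift shared by same-numbered arrays across probes was seen. That cannot tell whether they shared a culture or a day, which is not stated. The replicate block gave 13 pathway calls, 7 higher and 6 lower, and 3360 calls over all probes in place of 4128. Under it Fst (adjusted p = 0.0513), Gdf11 (0.0513) and Tgfb3 (0.0561) were not called.

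With 1 array left out, pathway calls ran from 5 to 11 (higher 2 to 6, lower 3 to 5), all probe calls from 1011 to 2491, and calls over the 5 lists from 15 to 24 in place of 33. By list they were 2 to 3 for other ligands and antagonists, 1 to 4 for intracellular regulators, 3 to 8 for TGF-beta and activin targets, 3 to 5 for BMP targets and 5 to 6 for latency genes. Of 710 values of the 56 tested pathway probes, 611 kept direction and side of the threshold, 48 lost the call, 12 gained it and 39 changed sign, all of these among 22 probes that had not passed. Of 429 values of the 33 called list genes, 366 kept their call and 63 lost it, and 0 changed sign. With the authors' scaling, which shifts the median of all probes upwards, the sign changed for Acvr2b (0.14), Eng (0.096), Fstl3 (0.20), Fstl4 (0.13), Gdf15 (0.066), the second Ltbp2 probe (0.15), Ltbp3 (0.17), Ltbp4 (0.18) and Tgfbr3 (0.075). With arrays left out, log2 changes ran from -0.071 to 0.22 for Acvr1, -0.11 to 0.27 for Acvr1b, -0.32 to 0.51 for Bmp2, -0.15 to 1.125 for Bmp4, -0.58 to 0.46 for Eng, -0.13 to 0.10 for Fstl3, -0.22 to 0.01 for Fstl4, -0.655 to 0.032 for Fstl5 and -0.34 to 0.05 for Gdf15. They ran from -0.054 to 0.11 for Gdf9, -0.012 to 0.28 for Inhbb, -0.028 to 0.24 for Inhbe, -0.24 to 0.22 for the second Ltbp2 probe, -0.15 to 0.08 for Ltbp3, -0.11 to 0.07 for Ltbp4 and -0.045 to 0.11 for Skil. They ran from -1.15 to 0.24 for Smad3, -0.10 to 0.18 for Smad6, -0.11 to 0.22 for Tgfb1i1, -0.17 to 0.27 for Tgfb2 and -0.23 to 0.14 for Tgfbr3. The cause of these differences was not tested. Without the dimmest probes, Bmp3, Fst, Gdf7 and Ltbp2 were not among those tested.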
